A study of Mus musculus with 4 samples.

Results

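The genes described are 10 genes that act at the branch points of glucose use, namely *Pfkfb1* to *Pfkfb4*, *Pdk1* to *Pdk4*, *Slc16a1* and *Slc16a3*. They were chosen by gene symbol and make up 10 of the 24347 gene rows in each sample's file. RNA-seq was performed on embryoid bodies (EBs), clusters of differentiating cells grown from embryonic stem cells (mESCs, strain 129/Ola) in serum medium without LIF, collected at day 3. WT EBs (2 samples) were compared with EBs from mESCs in which CRISPR/Cas9 had removed the promoter of *Gm11549*, the gene that encodes the micropeptide NEMEP (promoter KO, 2 samples). Neither genotype received any other treatment. The promoter KO lines were grown from single sorted cells, and nothing in the labels tells if the replicates of a genotype are separate clones or cultures, so p-values measure only the spread between these samples.

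The values are in FPKM (fragments counted per kilobase of transcript length and scaled to library size), and pairs of values are given throughout in the order of the replicate numbers. They summed to 677777 and 696928 in WT EBs, set against 673951 and 679870 in promoter KO EBs. The depth was estimated from the value that 1 fragment is worth in genes with a single annotated transcript, at an assumed fragment length of 200 bases. It came to about 24800000 and 22100000 fragments in WT EBs, set against 21600000 and 20200000 in promoter KO EBs. The targeted gene, *Gm11549*, had 0.750 and 0.522 FPKM in WT EBs, set against 0 and 0.0659 FPKM in promoter KO EBs. The promoter KO samples thus had the lower values, as their labels imply, although the gene was too low in all 4 samples to be tested.

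In glycolysis, phosphofructokinase commits glucose carbon to breakdown, and fructose-2,6-bisphosphate is its strongest allosteric activator. The PFKFB enzymes make and remove that activator, the PDK kinases switch off pyruvate dehydrogenase and so hold pyruvate back from mitochondrial oxidation, and the transporters MCT1 (*Slc16a1*) and MCT4 (*Slc16a3*) carry lactate across the plasma membrane. Several of these genes, among them *Pfkfb3*, *Pfkfb4*, *Pdk1* and *Slc16a3*, are known targets of the hypoxia-inducible factor HIF-1, which binds a short core motif in DNA.

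Promoter sequences are shown for *Slc16a3*, *Pfkfb3* and *Pdk1*, to give the core motif in 1 known HIF-1 target of each family. They come from RefSeq (GRCm38.p6) and run 5′ to 3′ on the gene's own strand, from 250 bases before a start site up to the first base that GENCODE M21 annotates as exon of the gene. Capitals mark the HIF core motifs ACGTG and GCGTG, read on both strands. ACGTG also lies inside the E-box CACGTG, which then counts on both strands.
*Slc16a3*, chr11:120948817-120949052, plus strand: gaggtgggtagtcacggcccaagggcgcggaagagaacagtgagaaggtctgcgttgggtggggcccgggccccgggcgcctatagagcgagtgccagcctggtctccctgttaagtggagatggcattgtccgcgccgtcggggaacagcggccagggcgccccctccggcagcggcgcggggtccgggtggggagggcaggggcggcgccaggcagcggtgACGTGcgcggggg
*Pfkfb3*, chr2:11502102-11502340, minus strand: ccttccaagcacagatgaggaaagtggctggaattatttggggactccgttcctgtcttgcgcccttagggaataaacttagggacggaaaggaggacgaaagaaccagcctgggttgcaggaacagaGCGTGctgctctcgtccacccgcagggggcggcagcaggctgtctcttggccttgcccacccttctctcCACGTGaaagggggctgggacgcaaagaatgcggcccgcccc
*Pdk1*, chr2:71872974-71873223, plus strand: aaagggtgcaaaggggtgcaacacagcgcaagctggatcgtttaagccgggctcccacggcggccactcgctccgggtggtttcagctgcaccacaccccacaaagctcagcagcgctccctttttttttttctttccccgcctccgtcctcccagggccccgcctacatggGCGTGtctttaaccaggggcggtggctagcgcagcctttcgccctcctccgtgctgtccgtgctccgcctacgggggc

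The stretch of *Slc16a3* holds ACGTG 27 bases before the start site. That of *Pfkfb3* holds a GCGTG 122 bases and an E-box 53 bases before its start site. It is 1 of 2 windows listed for the gene and lies within the annotated gene. The other window, at the outer 5′ end of the gene, holds neither core motif before annotated exon, although ACGTG occurs in its exon bases. That of *Pdk1* holds a GCGTG 78 bases before its start site, and is also 1 of 2 windows, the other lying wholly within annotated exon. All 10 members were matched in the RefSeq table, with 18 windows in all, some of which overlap. In the 250 bases before the start, ACGTG was present in 8 of the 18 windows, against 16.6% of all 32851 windows in the table. GCGTG was present in 9 of the 18, against 28.2% of all windows. The E-box CACGTG was present in 4 of the 18, against 6.02% of all windows, and these 4 hold no ACGTG outside it. Counted by gene, 6 of the 10 members had ACGTG and 8 had GCGTG in at least 1 window. A match describes the letters alone.

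Of the 10 members, 9 reached 1 FPKM in at least 2 samples and were tested with limma on log2(FPKM + 1), together with all 11941 genes that passed this filter. At a Benjamini-Hochberg adjusted p under 0.05, 0 of the 9 were called by limma, where 3.58% of all tested genes were called, 1.89% as lower and 1.68% as higher in promoter KO. At an unadjusted p under 0.05, 5 of the 9 were lower (*Pfkfb1*, *Pfkfb3*, *Pdk2*, *Pdk3* and *Slc16a3*) and 0 were higher, beside 15.6% of all tested genes that were lower and 15.0% that were higher by that rule (30.6% in either direction). The lower values were both those of promoter KO in 7 of the 9 tested members (32.4% of all tested genes), and both promoter KO samples exceeded WT in 2 (32.9% of all tested genes). Over all genes, the 427 calls became 128 without WT 1, 0 without WT 2 (1821 at an unadjusted p under 0.05) and 0 without promoter KO 1 (1942 at an unadjusted p under 0.05), all by limma. The median log2 fold change was -0.39 over the tested members and 0.0042 over all tested genes. In whole EBs, fewer cells of a type that expresses a gene and less RNA of that gene per cell cannot be told apart. The smallest two-sided p of an exact permutation test with 2 samples a group is 0.33, which is why variances shared across genes by limma were used.

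**Figure D1:**
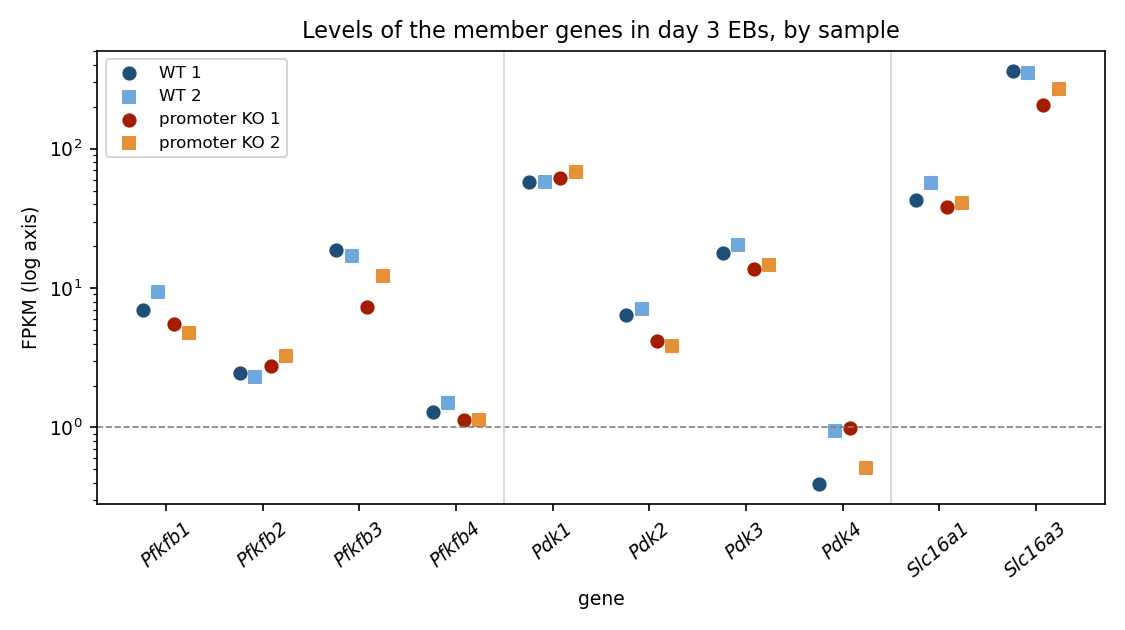
FPKM of the 10 member genes (log axis) in each of the 4 samples, with 1 point per sample and a dashed line at 1 FPKM, the minimum of the filter. *Slc16a3* is the highest member, at 204 to 358 FPKM, and *Pdk4* the lowest, at 0.395 to 0.999 FPKM.

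Among the PFKFB genes, *Pfkfb3* (chromosome 2, 11471433 to 11554077, minus strand) encodes the isoform whose kinase activity far exceeds its phosphatase activity. It had 18.7 and 17.0 FPKM in WT EBs, set against 7.29 and 12.2 FPKM in promoter KO EBs. The WT samples lay close together and above both promoter KO samples, of which promoter KO 1 was the lower. The log2 fold change was -0.85 (95% interval -1.40 to -0.30), with a limma adjusted p of 0.0756. Without promoter KO 1 it was -0.52 (limma adjusted p = 0.209), and without promoter KO 2 it was -1.18 (limma adjusted p = 0.0326), the lone promoter KO sample being assumed to vary like WT. Over all 11 alternative fits the adjusted p of *Pfkfb3* ranged from 0.0326 to 0.282.

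*Pfkfb1* (chromosome X, 150588229 to 150643878, plus strand), first known from liver and muscle, had 6.96 and 9.42 FPKM in WT EBs, set against 5.50 and 4.77 FPKM in promoter KO EBs. The groups did not overlap, and the WT samples differed from each other by more than the promoter KO samples did. Its log2 fold change was -0.57 (95% interval -0.997 to -0.149), with a limma adjusted p of 0.0969, and -0.38 without WT 2. The exons of *Pfkfb1* share 123 bases with those of *Apex2* on the opposite strand, so that reads counted without strand could not be assigned to either there.

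*Pfkfb2* (chromosome 1, 130689182 to 130729253, minus strand), known as the heart isoform, went the other way. It had 2.44 and 2.28 FPKM in WT EBs, set against 2.76 and 3.25 FPKM in promoter KO EBs. Promoter KO exceeded WT in both samples by a small margin, with a log2 fold change of 0.25 (95% interval -0.12 to 0.61) and a limma adjusted p of 0.301. Without promoter KO 2 it was 0.16. It shares 1262 exon bases with *Gm29427* on the same strand and 154 with *Yod1* on the opposite strand, and its value is uncertain to that extent. *Pfkfb4* (chromosome 9, 108991778 to 109032228, plus strand), known from testis, was the lowest of the 4, with 1.28 and 1.503 FPKM in WT EBs, set against 1.13 and 1.14 FPKM in promoter KO EBs. The promoter KO samples lay just below WT, and the log2 fold change of -0.16 (95% interval -0.54 to 0.21) had a limma adjusted p of 0.492 and was -0.098 without WT 2. Adding 1 before taking logs shrinks the fold change of so low a gene, whose ratio of mean FPKM was 0.814.

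Of the PDK genes, *Pdk1* (chromosome 2, 71873224 to 71903858, plus strand) was the most abundant. It had 57.3 and 57.5 FPKM in WT EBs, set against 61.8 and 67.5 FPKM in promoter KO EBs. The WT samples were nearly equal and both promoter KO samples lay above them, opposite to *Pfkfb3* and *Slc16a3*. The log2 fold change was 0.17 (95% interval -0.043 to 0.38), with a limma adjusted p of 0.240, and it stayed above 0 in all 11 alternative fits, at 0.10 to 0.23.

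*Pdk2* (chromosome 11, 95026258 to 95041354, minus strand), a widely expressed kinase, had 6.41 and 7.03 FPKM in WT EBs, set against 4.18 and 3.84 FPKM in promoter KO EBs. The difference between genotypes was several times that between samples of a genotype. Its log2 fold change was -0.62 (95% interval -0.95 to -0.30), and its limma adjusted p of 0.0584 was the smallest among the members. *Pdk3* (chromosome X, 93764607 to 93832201, minus strand) had 17.7 and 20.3 FPKM in WT EBs, set against 13.8 and 14.7 FPKM in promoter KO EBs. The groups did not overlap here either, with a log2 fold change of -0.39 (95% interval -0.67 to -0.10) and a limma adjusted p of 0.0953.

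*Pdk4* (chromosome 6, 5483351 to 5496309, minus strand), the kinase known to be induced by fasting, stayed below the filter. Tested without the filter, its log2 fold change was 0.079 (limma adjusted p = 0.854). It had 0.395 and 0.945 FPKM in WT EBs, set against 0.999 and 0.515 FPKM in promoter KO EBs. The groups overlapped, with 1 lower and 1 higher sample in each genotype. At the estimated depth and its longest transcript of 3484 bases, these values correspond to about 34.2 to 75.3 fragments.

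**Figure D2:**
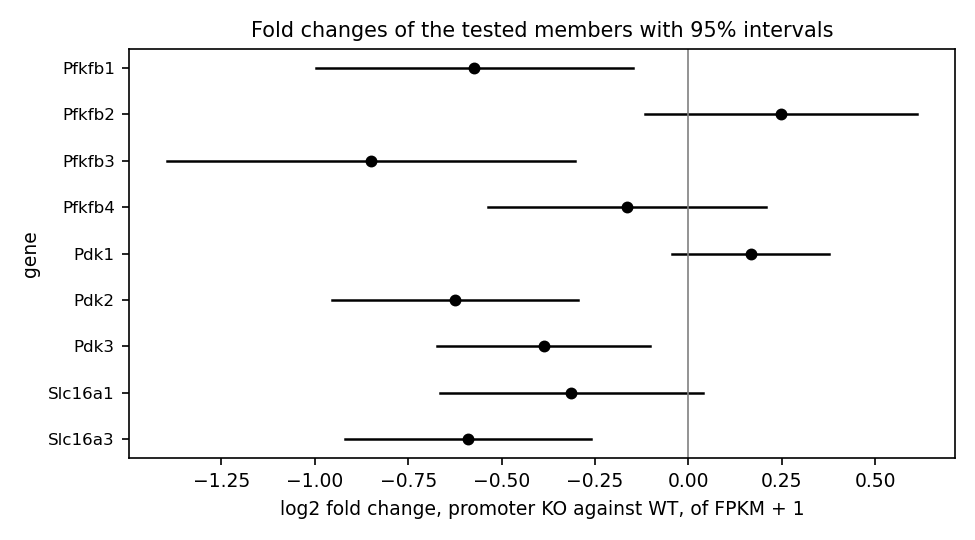
Log2 fold change of FPKM + 1 between promoter KO and WT for the 9 tested members, with points for the estimates and lines for the 95% intervals from limma. The intervals of *Pfkfb1*, *Pfkfb3*, *Pdk2*, *Pdk3* and *Slc16a3* lie below 0, and those of the other 4 include 0.

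The lactate transporter gene *Slc16a3* (chromosome 11, 120948480 to 120960868, plus strand), whose product MCT4 is known for lactate export from glycolytic cells, was the most abundant member. It had 358 and 348 FPKM in WT EBs, set against 204 and 269 FPKM in promoter KO EBs. The WT samples were close to each other, and the promoter KO samples lay below them but apart from each other. The log2 fold change was -0.59 (95% interval -0.92 to -0.26), with a limma adjusted p of 0.0639. Without promoter KO 1 it was -0.39 (limma adjusted p = 0.162), and without promoter KO 2, the promoter KO sample nearer to WT, it was -0.79 (limma adjusted p = 0.0279), the lone sample again being assumed to vary like WT. Over all 11 alternative fits the adjusted p of *Slc16a3* ranged from 0.0279 to 0.259.

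*Slc16a1* (chromosome 3, 104638668 to 104658462, plus strand), whose product MCT1 moves lactate in either direction, had 42.7 and 56.5 FPKM in WT EBs, set against 37.9 and 40.8 FPKM in promoter KO EBs. Both promoter KO values were the lower ones, but WT 1 was closer to them than to WT 2. The log2 fold change of -0.31 (95% interval -0.67 to 0.039) had a limma adjusted p of 0.200. It was -0.51 without WT 1 (limma adjusted p = 0.114) and -0.12 without WT 2 (limma adjusted p = 0.672).

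FPKM is per length, so levels can be added within a family. The summed FPKM of the 4 PFKFB genes was 29.4 and 30.2 in WT EBs, set against 16.7 and 21.3 in promoter KO EBs. The sum of *Slc16a1* and *Slc16a3* was 401 and 404 in WT EBs, set against 242 and 310 in promoter KO EBs. In both families the promoter KO samples lay below WT (exact permutation test, two-sided p = 0.33, the smallest possible). The summed FPKM of the 4 PDK genes was 81.8 and 85.8 in WT EBs, set against 80.8 and 86.6 in promoter KO EBs. These PDK sums overlapped between genotypes (exact permutation test, two-sided p = 1).

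Within the PDK family, *Pdk1* made up 70.0% and 67.0% of the PDK sum in WT EBs, set against 76.5% and 77.9% in promoter KO EBs. *Pdk3* made up 21.7% and 23.7% in WT EBs, set against 17.1% and 17.0% in promoter KO EBs. The groups did not overlap in either share (exact permutation test, two-sided p = 0.33 for each). Within the PFKFB family, the share of *Pfkfb3* was 63.6% and 56.3% in WT EBs, set against 43.7% and 57.1% in promoter KO EBs, so the genotypes overlapped. *Pfkfb2* made up 8.32% and 7.56% in WT EBs, set against 16.5% and 15.2% in promoter KO EBs, above WT in both promoter KO samples. *Slc16a3* made up 84.3% to 89.3% of the transporter sum in the 4 samples, with the genotypes overlapping.

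**Figure D3:**
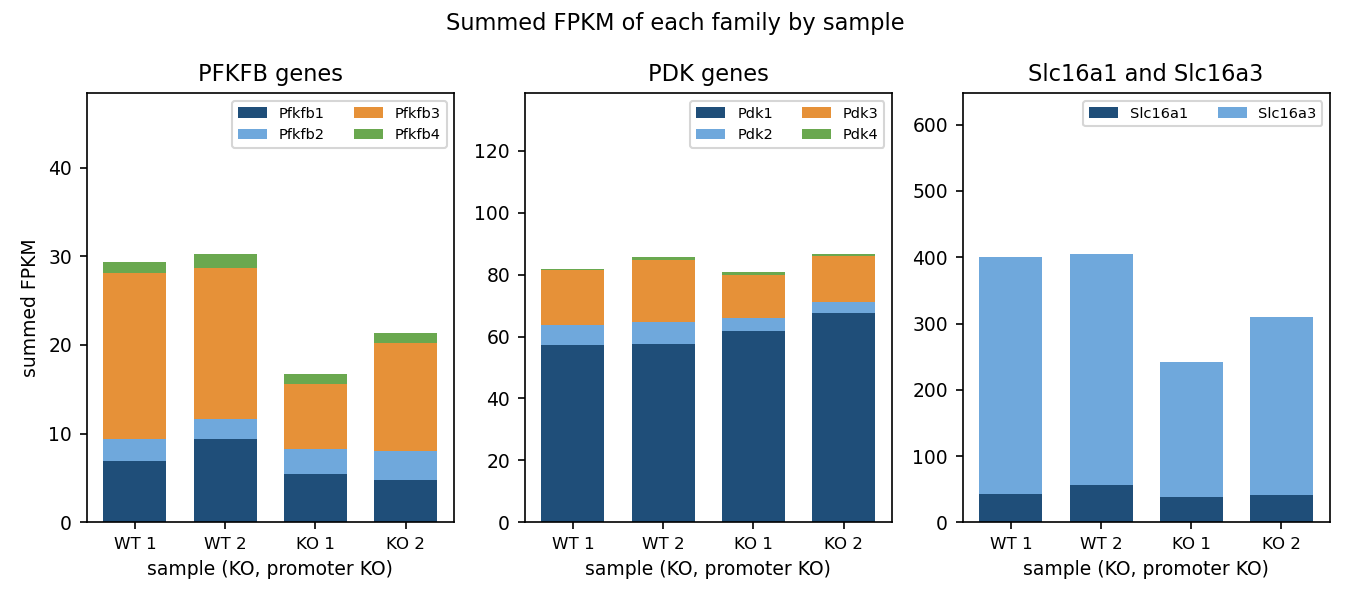
Stacked bars of the FPKM of the PFKFB genes, the PDK genes and the lactate transporter genes in each sample, with 1 colour per gene and axes that start at 0. The PFKFB and transporter sums are lower in both promoter KO samples, and the PDK sums, at 80.8 to 86.6 FPKM, overlap between genotypes.

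Partner genes that act beside the members were described from 7 lists with 51 genes, chosen with earlier results of these data known. Of these, 44 were tested. By limma with a Benjamini-Hochberg adjusted p under 0.05, 11 were lower and 1 was higher in promoter KO, beside 3.58% of all tested genes called in either direction, and the median log2 fold change over the 44 was -0.14. The higher gene, *Epas1*, passed the filter only through its promoter KO values. None of the 12 changed direction in an alternative fit that included it, but the calls themselves varied. Limma called 0 partner genes without WT 2, with 17 at an unadjusted p under 0.05, and 0 without promoter KO 1, with 16 at an unadjusted p under 0.05. It called 2 without WT 1 or without the intensity trend, and 0 without the filter, with 23 at an unadjusted p under 0.05. Each of the 12 was called in 2 (*Bsg*) to 8 (*Ankrd37*) of the alternative fits that included it.

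At the step that the PFKFB enzymes control, limma called 1 of 5 tested genes, beside 3.58% of all tested genes. The called gene was *Pfkl*, which encodes liver-type phosphofructokinase. At an unadjusted p under 0.05 there were 1 lower and 2 higher genes (*Fbp1* and *Tigar*), beside 15.6% of all tested genes lower and 15.0% higher at that threshold. *Fbp1* stayed below 1 FPKM in WT and so passed the filter only through promoter KO, where it was higher. *Pfkl* had 299 and 328 FPKM in WT EBs, set against 175 and 209 FPKM in promoter KO EBs. The groups were well apart, and the log2 fold change was -0.71 (SE 0.11, limma adjusted p = 0.0391). Of the pyruvate dehydrogenase complex, the target of the PDK kinases, and its phosphatases, limma called 0 of 8 tested genes, with 1 higher at an unadjusted p under 0.05, beside the same 15.0%. The most abundant of them, *Pdhb*, had 91.1 and 88.8 FPKM in WT EBs, set against 106 and 98.1 FPKM in promoter KO EBs. Its promoter KO samples lay slightly above WT, with a log2 fold change of 0.18 (limma adjusted p = 0.197). For the mitochondrial pyruvate carrier, limma called 0 of 2 genes, with 0 at an unadjusted p under 0.05, and the more abundant, *Mpc2*, overlapped between genotypes at 11.7 to 19.7 FPKM.

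Lactate dehydrogenase supplies the lactate that MCT4 exports. *Ldha* had 3200 and 3118 FPKM in WT EBs, set against 1931 and 2006 FPKM in promoter KO EBs. It was called as 1 of 2 tested genes of its list, beside 3.58% of all tested genes. Samples of a genotype were close and the genotypes far apart, with a log2 fold change of -0.68 (SE 0.072, limma adjusted p = 0.0244). The other, *Ldhb*, lay the other way, with 236 and 287 FPKM in WT EBs, set against 385 and 312 FPKM in promoter KO EBs (log2 fold change 0.41, limma adjusted p = 0.114). *Bsg*, the chaperone that brings MCT1 and MCT4 to the plasma membrane, had 536 and 629 FPKM in WT EBs, set against 391 and 412 FPKM in promoter KO EBs. It too lay below WT in both promoter KO samples (log2 fold change -0.53, SE 0.097, limma adjusted p = 0.0488), but it was called in only 2 of the 11 alternative fits, quantile normalization and the replicate block, and in none that left out a sample, with adjusted p up to 0.232. *Bsg* was the 1 gene called of 2 tested in its list, beside the same 3.58% of all tested genes. *Ldha* has 4 near-identical annotated copies, so its value could include reads from them.

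Of the regulators, 3 of 11 tested genes were called, beside 3.58% of all tested genes. At an unadjusted p under 0.05 there were 2 lower and 3 higher genes, beside 15.6% lower and 15.0% higher of all tested genes. *Egln1* (log2 fold change -1.78, limma adjusted p = 0.0389) and *Egln3* (log2 fold change -1.47, limma adjusted p = 0.0422), prolyl hydroxylases that mark HIF for breakdown, were lower. *Epas1*, which encodes HIF-2α, had 0.746 and 0.569 FPKM in WT EBs, set against 5.47 and 5.06 FPKM in promoter KO EBs, and was higher (log2 fold change 1.92, limma adjusted p = 0.0208). Both WT values were below 1 FPKM, so *Epas1* passed the filter only through promoter KO, where it was higher, and its call depends on that. Without the filter its limma adjusted p was 0.133, in a fit that called 0 of all genes, so this value is not particular to *Epas1*. *Hif1a* itself lay at 24.5 to 29.8 FPKM in WT and at 32.4 and 32.5 FPKM in promoter KO, with a log2 fold change of 0.25 (limma adjusted p = 0.204). *Myc*, the most abundant regulator by the mean of all 4 samples although below *Egln1* and *Egln3* in WT, was not called (log2 fold change 0.42, limma adjusted p = 0.0981).

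Of 14 tested HIF-1 targets outside the members, 6 were lower and 0 were higher by limma, and 11 were lower and 0 higher at an unadjusted p under 0.05, beside 1.89% and 15.6% of all tested genes that were lower by these rules. Limma called 1 without WT 1, 0 without WT 2 and 0 without promoter KO 1, with 12, 10 and 10 lower at an unadjusted p under 0.05. Their median log2 fold change was -0.93. The called genes were *Aldoc* (-2.26 on the log2 scale), *Ndrg1* (-2.08), *Ankrd37* (-1.69), *Adm* (-1.68), *Ddit4* (-1.41) and *Pgk1* (-0.88), with limma adjusted p from 0.0208 to 0.0423. *Pgk1*, the most abundant, had 1607 and 1789 FPKM in WT EBs, set against 841 and 1010 FPKM in promoter KO EBs, and has 4 near-identical copies. The exons of *Ankrd37* share 349 bases with *Lrp2bp* and 57 with *Ufsp2*, both on the opposite strand. Those of *Ndrg1* share 419 bases with *Gm17035* and 137 with *Gm2895*, also on the opposite strand. The values of *Ankrd37* and *Ndrg1* are uncertain to that extent. The 8 tested genes of the list that were not called ranged from -1.15 (*Bnip3*, limma adjusted p = 0.0575) to 0.080 (*Kdm3a*, limma adjusted p = 0.639).

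**Figure D4:**
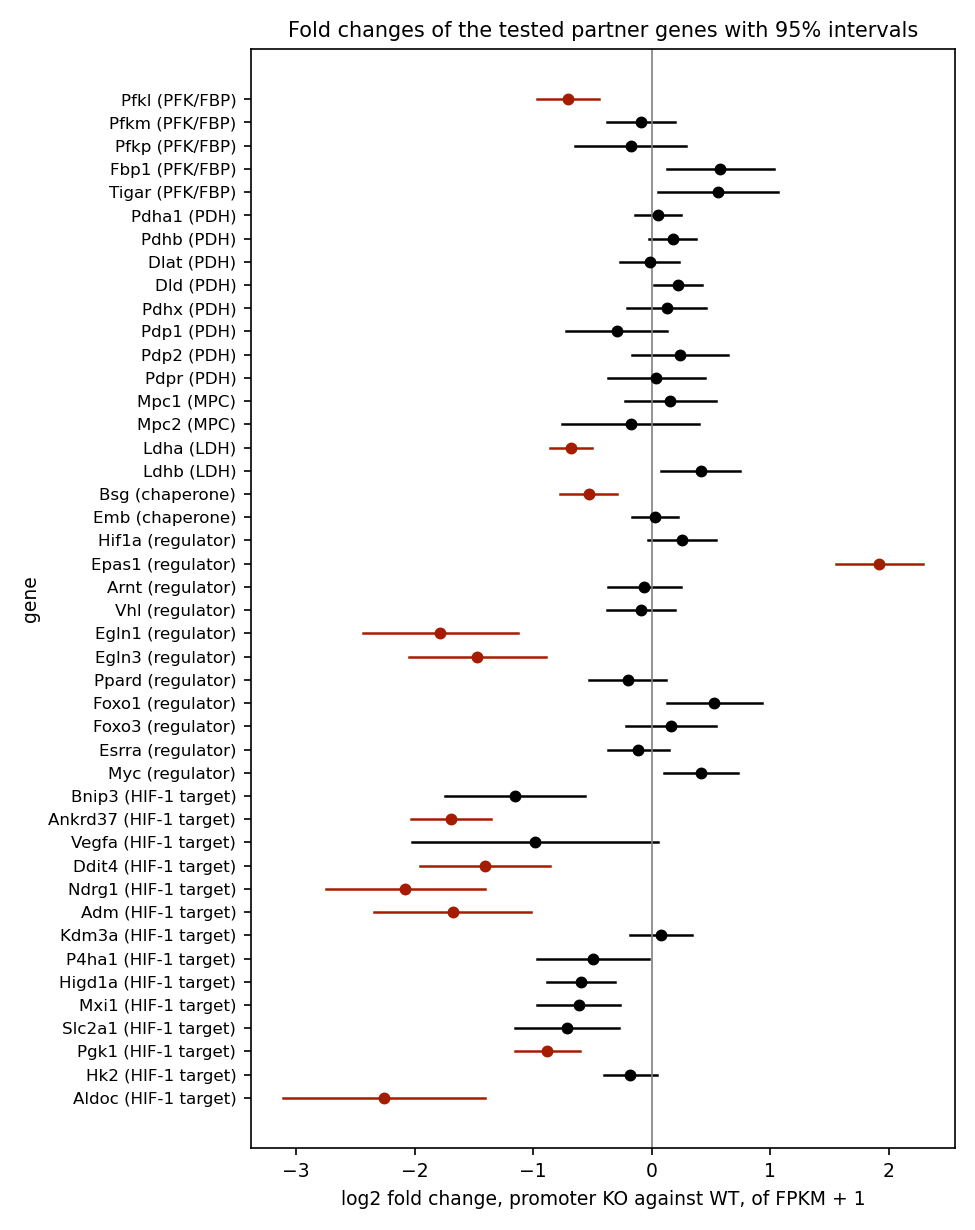
Log2 fold change of FPKM + 1 between promoter KO and WT for the 44 tested partner genes, with the list of each gene in brackets and lines for the 95% intervals from limma. The 12 genes with an adjusted p under 0.05 are in red, of which *Epas1* alone is higher in promoter KO. *Epas1* passed the filter only through its promoter KO values.

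The label calls the cells mesendoderm. All 8 mesendoderm markers were tested and lay lower in promoter KO, 5 of them with a limma adjusted p under 0.05, beside 1.89% of all tested genes called lower. Limma called 2 of them without WT 1, 0 without WT 2 and 0 without promoter KO 1, with 7, 8 and 7 lower at an unadjusted p under 0.05. Their summed FPKM was 777 and 1002 in WT EBs, set against 148 and 314 in promoter KO EBs, and *T* was the most abundant by the mean of all 4 samples, although below *Eomes* in promoter KO 1. Pluripotency genes were present in every sample with *Pou5f1* the most abundant, their sum being 1443 to 1750 FPKM in WT and 1824 to 1915 FPKM in promoter KO. Pluripotency genes were thus present beside the mesendoderm markers, and values of whole EBs do not show which cells expressed them. Of 7 pluripotency genes limma called 0, with 4 higher and 1 lower (*Nanog*) at an unadjusted p under 0.05, beside 15.0% higher and 15.6% lower of all tested genes. Of 4 epiblast genes, limma called 1, *Pou3f1*, as higher, beside 1.68% of all tested genes called higher. The other 3 overlapped between genotypes. The call of *Pou3f1* did not hold in every fit that left out a sample. The epiblast sums were 465 to 632 FPKM in WT and 643 to 680 FPKM in promoter KO, with *Dnmt3b* the most abundant.

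Extraembryonic endoderm markers were higher in promoter KO in 9 of 12 tested genes by limma, beside 1.68% of all tested genes called higher. Among the 9, *Sox7* and *Cubn* stayed below 1 FPKM in WT and so passed the filter only through promoter KO, where they were higher. Their calls depend on that, and neither passes the filter when a promoter KO sample is left out. Limma called 6 without WT 1, 0 without WT 2, 0 without promoter KO 1 and 6 without promoter KO 2 (10 genes tested in each of these last fits), with 10, 12, 9 and 7 higher at an unadjusted p under 0.05, and 1 lower without WT 1. Their summed FPKM was 114 and 147 in WT EBs, set against 284 and 355 in promoter KO EBs, with *Sparc* the most abundant. Of 4 neuroectoderm markers only *Nes* passed the filter, and limma called 0, with 1 at an unadjusted p under 0.05. The neuroectoderm sum was 22.1 and 24.9 FPKM in WT EBs, set against 8.68 and 16.2 FPKM in promoter KO EBs, most of it from *Nes*. The other 3, *Sox1*, *Pax6* and *Zic1*, stayed below 1 FPKM in all 4 samples and lay the other way, with both promoter KO samples above WT and ratios of mean FPKM of 3.11 to 4.28. No marker of these 5 lists was at 0 in any sample. The part of cell composition in the levels of *Pfkfb3*, *Slc16a3* and the other members was not tested.

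For 1 member of each family, the 3 tested genes with the most similar pattern were found by the Euclidean distance between mean-centred log2(FPKM + 1) values over the 4 samples. They were *Fndc3c1*, *Ppp1r3g* and *Fam57a* for *Pfkfb3*, at distances of 0.13 each. For *Slc16a3* they were *Gnai2* (0.031), *Kit* (0.033) and *Sema7a* (0.040). For *Pdk1* they were *Tmed9* (0.022), *Tor3a* (0.022) and *Pramef8* (0.023).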

How the data were processed

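RNA-seq values of day 3 EBs were used, 2 samples per genotype. The authors deposited 1 table of FPKM values per sample, already divided by transcript length and library size. The methods name TopHat, Cufflinks with GENCODE M4 annotation, mm10 and the unit RPKM, whereas the submitters' processing notes name HISAT2 2.1.0, Cufflinks and Cuffnorm, so the aligner is uncertain. The strand setting is not given in the sources used here.

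Genes that reached 1 FPKM in 2 or more samples were tested on log2(FPKM + 1) with limma 3.58.1 in R 4.3.3 (eBayes with an intensity trend, genotype only), with Benjamini-Hochberg adjustment over all 11941 genes. Sums and shares were compared by exact permutation tests. The procedure was tested on simulated data. A near-identical copy is another annotated gene with 95% identity or more over at least 200 bases (BLAST 2.17.0). Depth was estimated with Python 3.11.15 and numpy 2.4.6. Of the assumed fragment lengths tried, 200 bases gave the sharpest signal in 3 of the 4 samples, and 300 bases did in promoter KO 2. Figures were drawn with matplotlib 3.10.9.

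The members and lists were chosen with earlier results of these data known. Named genes were the members, partner genes with an adjusted p under 0.05, the most abundant gene of each partner list, the 3 nearest genes in pattern of 3 members, and *Gm11549*. Genes outside this rule, such as *Hif1a*, *Bnip3*, *Kdm3a*, *Ldhb*, *Fbp1*, *Tigar*, *Nanog*, *Eomes*, *Pou3f1*, *Sox1*, *Pax6* and *Zic1*, were chosen after their values were seen. Alternatives were another pseudocount, filter, variance model or scaling, the replicate number as a block, log2 ratios of mean FPKM, shares over the members past the filter, and each sample left out.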

Additional observations from a re-analysis of the deposited data

How the results depend on the processing

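The tested members kept their direction in every alternative fit and in the log2 ratio of mean FPKM, and limma called 0 of them in 9 of the 11 fits, with 3 to 6 lower at an unadjusted p under 0.05. Over the fits that left out 1 sample, in which the lone sample of a genotype was assumed to vary like the other genotype, 0 to 2 members were called (*Pfkfb3* and *Slc16a3* without promoter KO 2). The 427 genes called became 203 with a mean of at least 5 FPKM, 283 with median centring, 82 without the intensity trend and 0 without the filter (4059 at an unadjusted p under 0.05). With 1 sample left out they ranged from 0 to 638, with 1821 genes at an unadjusted p under 0.05 without WT 2 and 1942 without promoter KO 1. The 12 partner genes called became 2 without the intensity trend and 0 without the filter (23 at an unadjusted p under 0.05), and ranged from 0 to 12 with 1 sample left out. The cause was not tested. *Mpc2* had a log2 fold change of 0.17 without WT 2 and -0.53 without WT 1, against -0.18 with all samples. With 1 of 2 samples left out, the change in a family sum or share is set by the distance between the replicates and says nothing about stability. The sign changed for the *Pfkfb1* share (-5.08 to 5.54 percentage points, 0.23 with all samples), the *Pdk4* share (-0.20 to 0.44, 0.12 with all samples) and the PDK sum (-3.05 to 2.74 FPKM, -0.15 with all samples). Leaving out each sample for 4 lists was chosen after seeing the data. The 6 HIF-1 targets called ranged from 0 to 7, the 5 mesendoderm markers from 0 to 7, the 1 epiblast gene from 0 to 1 and the 9 extraembryonic endoderm markers from 0 to 6.

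The numbers 1 and 2 in the labels do not show that samples are paired, and the deviations of same-numbered samples had a correlation of 0.035 across genes. With the number as a replicate block, 1202 genes, 17 partner genes and 1 member (*Slc16a3*, limma adjusted p = 0.0382) were called.

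At the estimated depth of 20200000 to 24800000 fragments, *Pdk4* and *Pfkfb4* were the members with the fewest estimated fragments.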

Other observations

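The aromatic amino acid transporter gene *Slc16a10*, of the same family as *Slc16a1* and *Slc16a3* and chosen after its values were seen, had 7.18 and 8.71 FPKM in WT EBs, set against 3.17 and 4.68 FPKM in promoter KO EBs. Both promoter KO samples lay below WT, with a log2 fold change of -0.87 (limma adjusted p = 0.0613).

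The ratio of *Ldha* to *Ldhb* FPKM was 13.5 and 10.9 in WT EBs, set against 5.01 and 6.43 in promoter KO EBs, so the genotypes did not overlap (exact permutation test, two-sided p = 0.33). The ratio of *Slc16a3* to *Bsg* was 0.668 and 0.553 in WT EBs, set against 0.522 and 0.652 in promoter KO EBs, and overlapped between genotypes.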
